A study of Homo sapiens with 3 samples.

Results

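Metallothionein genes MT1A, MT1E, MT1F, MT1G, MT1H, MT1M, MT1X and MT2A were examined in xenograft tumors of the triple-negative breast cancer (TNBC) cell line SUM-149. The 8 genes were taken by symbol from a fixed list, and 7 of them had values among the 29689 genes of the expression table. MT1A was not analysed here. Of these 7 genes, 4 (MT2A, MT1E, MT1F and MT1X) were above zero in all 3 tumors.

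Tumors were raised by placing SUM-149 cells with Matrigel in the mammary fat pads of female Nu/Nu mice, which lack T cells. One tumor library was from vehicle treatment, one from 10 days of the CDK2 inhibitor dinaciclib (CDK2i) and one from 10 days of an EZH2 inhibitor (EZH2i). The label names the EZH2 inhibitor as EPZ6438, while the study's legend on xenografts of this line names GSK343. All 3 tumors came from 1 cell line, and each treatment had 1 library, so no replicate spread, no test and no p-value could be given. Whether a library held 1 mouse or a pool was not given in the sources used here.

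Metallothioneins are small cytosolic proteins rich in cysteine, whose thiol groups hold zinc and copper and can take up cadmium. They buffer free zinc, and their transcription rises when the zinc-sensing factor MTF1 binds metal response elements in their promoters. Glucocorticoids, oxidative stress and cytokines also raise their mRNA in many tissues. MT2A and several MT1 genes are active in epithelial cells, including mammary epithelium and carcinomas, whereas MT3 is best known from brain and MT4 from stratified squamous epithelium.

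The 8 genes lie close together, with other metallothionein genes and pseudogenes between them, on chromosome 16 of GRCh37, the build to which the reads were aligned, in a stretch of 75.6 kb from chr16:56642496-56718108. MT2A spans chr16:56642496-56643409, MT1E chr16:56659387-56661024, MT1M chr16:56666571-56667893 and MT1A chr16:56672578-56673999. MT1F spans chr16:56691643-56694610, MT1G chr16:56700642-56701977, MT1H chr16:56703726-56705041 and MT1X chr16:56716382-56718108. MT1G is on the minus strand and the other 7 are on the plus strand.

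The coding sequences of the 4 genes detected in all tumors are shown because their likeness bears on how well short reads can be told apart between them. They were read 5′ to 3′ from the GENCODE 44 transcripts lifted to GRCh37, without the stop codon, and capitals mark the cysteine codons TGC and TGT.
MT2A: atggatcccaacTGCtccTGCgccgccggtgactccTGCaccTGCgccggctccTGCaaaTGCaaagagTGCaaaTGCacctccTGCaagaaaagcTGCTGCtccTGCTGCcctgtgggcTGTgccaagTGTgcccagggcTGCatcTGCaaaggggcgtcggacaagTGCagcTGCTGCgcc
MT1E: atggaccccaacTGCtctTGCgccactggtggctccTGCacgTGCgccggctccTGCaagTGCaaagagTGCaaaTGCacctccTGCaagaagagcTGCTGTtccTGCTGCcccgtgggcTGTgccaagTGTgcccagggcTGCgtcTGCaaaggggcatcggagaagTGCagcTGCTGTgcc
MT1F: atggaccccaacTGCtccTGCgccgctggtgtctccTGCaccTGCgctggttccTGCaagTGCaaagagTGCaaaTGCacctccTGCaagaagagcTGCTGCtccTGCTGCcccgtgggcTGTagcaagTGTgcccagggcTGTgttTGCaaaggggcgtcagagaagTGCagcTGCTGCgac
MT1X: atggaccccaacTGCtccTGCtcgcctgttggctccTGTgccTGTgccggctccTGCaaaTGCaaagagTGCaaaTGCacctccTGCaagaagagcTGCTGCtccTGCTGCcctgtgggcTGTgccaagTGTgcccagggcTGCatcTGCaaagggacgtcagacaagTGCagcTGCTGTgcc
Each of these sequences had 183 bases in 3 coding exons and 61 codons, 20 of them for cysteine, or 32.8% of the codons. MT1A, MT1H and MT1M had the same counts, and MT1G had 62 codons with 20 for cysteine. Between the 4 genes, identity ran from 88.5% for MT1F and MT1X to 92.3% for MT1X and MT2A and for MT1E and MT2A. The longest stretch without a difference was 63 bases for MT1X and MT2A, against 32 bases for MT1E and MT2A and for MT1F and MT2A. How the authors assigned reads that match several of these genes was not given in the sources used here, so a split of reads between members remains uncertain where such stretches are involved.

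Promoters are shown because the metal response element is the sequence through which MTF1 acts on these genes. The 250 bases before the start site were taken from RefSeq on GRCh38.p14, a later build than that of the expression table, and entries matched 3 of the 8 members. MT2A is at chr16:56608334-56608583, MT1X at chr16:56682220-56682469 and MT1H at chr16:56669564-56669813, all on the plus strand and written 5′ to 3′. Capitals mark matches to the element cores TGCACNC or TGCGCNC on either strand.
MT2A: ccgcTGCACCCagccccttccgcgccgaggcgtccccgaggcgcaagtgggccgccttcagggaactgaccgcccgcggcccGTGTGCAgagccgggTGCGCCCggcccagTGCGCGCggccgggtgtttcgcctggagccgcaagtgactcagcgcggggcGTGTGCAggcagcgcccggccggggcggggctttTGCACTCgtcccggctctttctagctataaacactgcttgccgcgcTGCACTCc
MT1X: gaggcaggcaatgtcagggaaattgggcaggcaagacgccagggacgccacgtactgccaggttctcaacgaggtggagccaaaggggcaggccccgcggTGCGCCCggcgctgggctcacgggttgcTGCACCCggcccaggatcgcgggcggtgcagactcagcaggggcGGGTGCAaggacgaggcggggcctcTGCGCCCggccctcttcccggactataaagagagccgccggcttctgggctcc
MT1H: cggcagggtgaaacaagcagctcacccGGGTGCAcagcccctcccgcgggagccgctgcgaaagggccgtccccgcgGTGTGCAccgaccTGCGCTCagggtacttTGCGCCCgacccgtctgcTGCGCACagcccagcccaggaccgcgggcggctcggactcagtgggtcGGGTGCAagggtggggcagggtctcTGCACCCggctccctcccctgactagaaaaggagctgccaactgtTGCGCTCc
MT2A had 7 matches (5 forward and 2 reverse), MT1X had 4 (3 forward and 1 reverse) and MT1H had 8 (5 forward and 3 reverse), and no match overlapped another. At least 1 match was present in 24.8% of 35116 RefSeq promoters of the same length. As many as 4 matches occurred in 0.370% of them, as many as 7 in 0.0313% and as many as 8 in 0.0171%. Of these 3 genes, MT1H had the most matches and at most 1 fragment in any tumor, whereas MT2A had the highest mRNA level. A match is a description of the sequence and not a binding site. MT1A, MT1E, MT1F, MT1G and MT1M had no entry in the promoter table used.

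MT2A was the most abundant metallothionein mRNA in every tumor, followed by MT1E, MT1F and MT1X. Deposited values were FPKM (fragment counts scaled to transcript length and to the size of the library) on a log2 scale. Many low values fell on whole multiples of a single fragment, from which the depth was worked out as 16.8 M fragments (vehicle), 19.1 M (CDK2i) and 17.5 M (EZH2i). The 4 genes held their order in all 3 tumors, but the spread between tumors of a treatment is unknown and no step in that order was tested.

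MT2A, the major metallothionein of most human cells, was at 370 FPKM under vehicle, 465 under CDK2i and 305 under EZH2i. It ranked 141, 111 and 129 among the 29689 genes in these tumors. The CDK2i tumor was highest and the EZH2i tumor lowest. These levels rested on about 5615, 8031 and 4834 fragments.

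MT1E, a cysteine-rich isoform of the MT1 group, was at 143 FPKM under vehicle, 107 under CDK2i and 103 under EZH2i, from about 1791, 1532 and 1340 fragments. Its highest level was in the vehicle tumor, and the treated tumors lay close to each other. The ratio of MT2A to MT1E in FPKM was 2.59 under vehicle, 4.33 under CDK2i and 2.98 under EZH2i.

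MT1F, another MT1 isoform with the same metal-binding cysteines, was at 13.0 FPKM under vehicle, 11.4 under CDK2i and 5.88 under EZH2i, from 342, 343 and 162 fragments. MT1X was at 5.66 FPKM under vehicle, 5.63 under CDK2i and 2.41 under EZH2i, from 164, 186 and 73 fragments. For both genes the EZH2i tumor stood below the other 2, which were close together. The ratio of MT1F to MT1X in FPKM stayed within 2.03 to 2.44 over the 3 tumors.

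**Figure D1:**
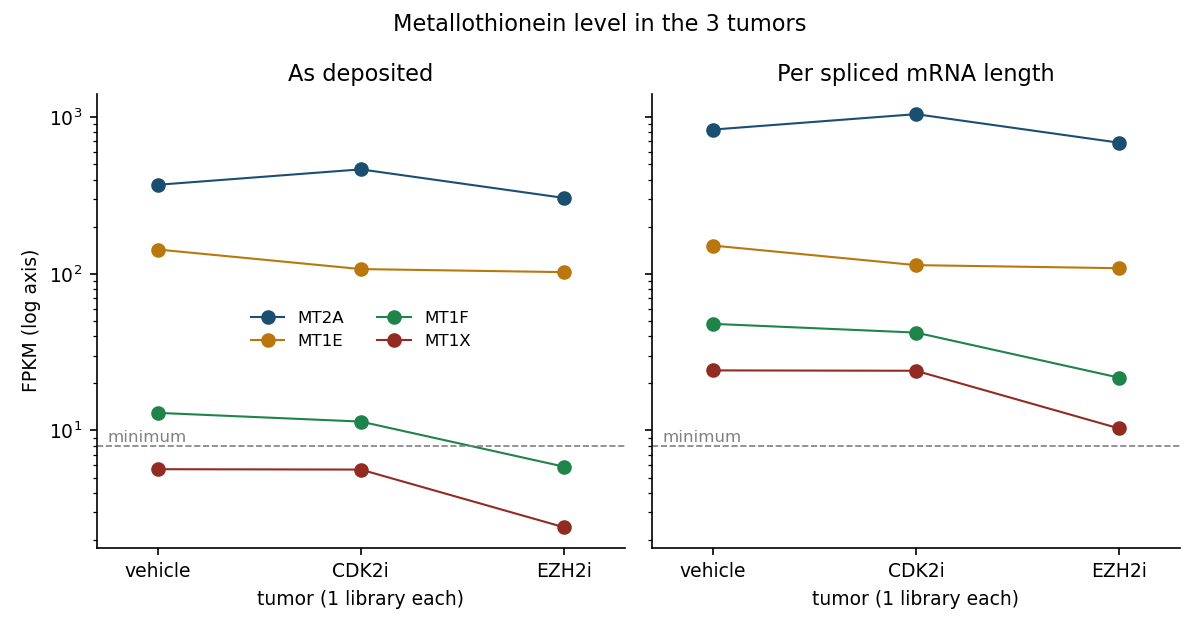
FPKM of MT2A, MT1E, MT1F and MT1X (log axis) in the vehicle, CDK2i and EZH2i tumors, as deposited (left) and recomputed per spliced mRNA length (right), with 1 library per point and a dashed line at the expression minimum of 8 FPKM. MT2A and MT1E lie above the line on both scales, whereas MT1X lies below it as deposited (2.41 to 5.66 FPKM) and above it per spliced length (10.3 to 24.2 FPKM).

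Where the length behind a deposited FPKM could be read from whole fragments, it was more often that of the longest transcript of the gene than that of the exon union (34.4% to 37.1% of low-valued genes for which this length and the exon union differ, against 0.987% to 1.34% for the union). The comparison may favour the longest transcript, since the depth had itself been worked out at its length. MT1F, MT1X, MT1G and MT1H held whole fragments at that length, MT1M did not (0.960 fragments), and MT2A and MT1E had too many fragments for such a check. The longest transcript of MT2A, MT1F, MT1X and MT1G is annotated as one that retains an intron. The spliced mRNA of MT1X has 404 nt against 1727 nt for that transcript, that of MT1F 425 against 1573 nt, and that of MT2A 401 against 903 nt. Recomputed per spliced length, with the longest transcript taken as the deposited length, MT2A was at 834 FPKM under vehicle, 1046 under CDK2i and 688 under EZH2i. MT1E, whose spliced mRNA of 704 nt is near its longest of 746 nt, was at 152, 114 and 109 FPKM in the same order. On this scale MT1F was at 47.9, 42.2 and 21.8 FPKM, and MT1X was at 24.2, 24.0 and 10.3 FPKM. The order of the genes was the same, and MT1F came nearer to MT1E, with a ratio of MT1E to MT1F of 3.16 in the vehicle tumor in place of 11.0. Differences between tumors within a gene are the same on both scales. The fragment numbers of MT2A and MT1E rest on the annotated length, and a shorter length would mean fewer fragments and wider counting intervals. For MT1F, 266, 267 and 126 fragments at 1224 nt were also whole.

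MT1G, MT1H and MT1M were at or near zero. MT1G had 1 fragment in the vehicle tumor (0.0949 FPKM) and none in the treated tumors, where a count of 0 allows up to 0.250 FPKM with CDK2i and 0.273 FPKM with EZH2i (3 fragments). MT1H had 1 fragment in the vehicle tumor (0.0855 FPKM) and none in the others, which allows up to 0.225 FPKM with CDK2i and 0.246 FPKM with EZH2i. MT1M had about 1 fragment in the CDK2i tumor (0.126 FPKM) and none in the vehicle or EZH2i tumor, with limits of 0.449 and 0.430 FPKM. No difference between tumors was detectable for these 3 genes at this depth. Such limits and the intervals given here cover counting error only.

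MT2A and MT1E together made up 96.5% of the summed metallothionein FPKM under vehicle, 97.1% under CDK2i and 98.0% under EZH2i. The share of MT2A was 69.6% under vehicle, 78.9% under CDK2i and 73.4% under EZH2i. MT1E gave 26.9%, 18.2% and 24.6% of the sum in the same order. MT1F went from 2.43% with vehicle to 1.41% with EZH2i, and MT1X from 1.06% to 0.579%. Per spliced mRNA length, the share of MT2A was 78.8% under vehicle, 85.3% under CDK2i and 83.0% under EZH2i, and that of MT1E was 14.3%, 9.27% and 13.1%. On that scale the ratio of MT2A to MT1E was 5.50, 9.21 and 6.33. The sum was 532 FPKM under vehicle, 589 under CDK2i and 416 under EZH2i, or 0.111%, 0.136% and 0.103% of all FPKM.

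**Figure D2:**
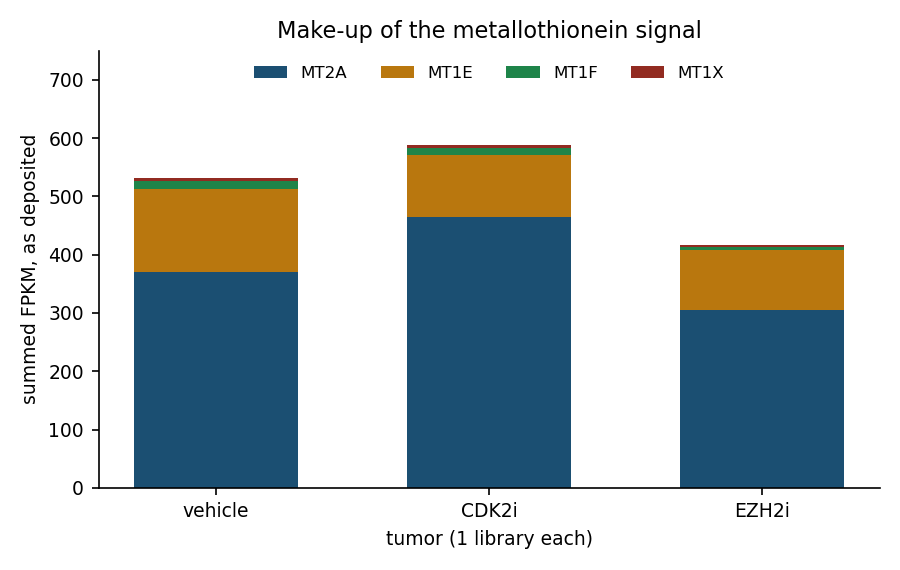
Deposited FPKM of MT2A, MT1E, MT1F and MT1X stacked for the vehicle, CDK2i and EZH2i tumors, with 1 library per bar. The bars reach 532, 589 and 416 FPKM, and MT2A (69.6% to 78.9%) and MT1E (18.2% to 26.9%) fill nearly all of each.

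The CDK2i tumor was compared with vehicle to ask which genes differed after CDK2 inhibition. No metallothionein gene passed a fold change above 2 with a log2 FPKM above 3 in at least 1 tumor of the pair, cutoffs that the study used together with a p value cutoff, which could not be applied with 1 library per treatment. Of the members, 3 (MT2A, MT1E and MT1F) reached the expression threshold and 0 passed, while 11.3% of all genes that reached it passed in either direction. MT2A was higher in the CDK2i tumor by 0.33 on the log2 scale, with a 95% counting interval of 0.28 to 0.38. MT1E was lower, with a log2 difference of -0.41 and an interval of -0.51 to -0.32. MT2A and MT1E thus differed in sign, and both intervals excluded 0.

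For MT1F the log2 difference between the CDK2i and vehicle tumors was -0.18 with an interval of -0.41 to 0.04. For MT1X it was -0.01 with an interval of -0.32 to 0.30. Both intervals included 0. The 4 genes had a median of -0.10, near the median of -0.11 over the 11109 expressed genes (mean log2 FPKM above 1 and no zero value). Lower values were found for 3 of the 4 genes and for 58% of all expressed genes, although MT1X turned to 0.18 with centring on the median expressed gene and to 0.14 with equal summed FPKM. The summed metallothionein FPKM was higher in the CDK2i tumor by 0.15 on the log2 scale.

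In the EZH2i tumor, all 4 metallothionein genes were lower relative to vehicle as deposited, as were 38.5% of all expressed genes, with MT2A changing sign to 0.25 once a GC and length trend was removed. MT1F passed both thresholds. MT1F was 2.20-fold lower, a log2 difference of -1.14 with a 95% counting interval of -1.42 to -0.87. It was the single member to pass among the 3 that reached the expression threshold. MT1F reached that threshold only through the vehicle tumor (log2 FPKM of 3.695, against 2.555 under EZH2i). Over all genes, 13.4% passed in either direction and 4.42% passed as lower.

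MT1X was 2.35-fold lower in the EZH2i tumor relative to vehicle, a log2 difference of -1.23 with an interval of -1.65 to -0.82. It was not counted as passing because its deposited log2 FPKM of 2.50 in the vehicle tumor was below the minimum of 3. Per spliced mRNA length, its log2 level in that tumor was 4.60, and MT1X then passed as well, in a setting added after the data were seen. Among expressed genes, 2.62% had a log2 difference below that of MT1X and 3.24% below that of MT1F.

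The abundant members differed less. MT1E was lower in the EZH2i tumor by a log2 difference of -0.48 (interval -0.58 to -0.38). MT2A was lower by a log2 difference of -0.28 (interval -0.33 to -0.22). The median over the 4 genes was -0.81, against 0.19 over all expressed genes, and the summed FPKM differed by -0.35 on the log2 scale. The sum moved to -0.11 with equal summed FPKM and turned to 0.13 with the trend removed.

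EZH2i and CDK2i tumors were also compared directly, with both comparisons above resting on the same vehicle library. All 4 genes were lower in the EZH2i tumor, as were 33% of all expressed genes, although MT1E turned to 0.03 with equal summed FPKM, to 0.12 when ribosomal protein and mitochondrially encoded genes were left out of the sums, and to 0.01 with the trend removed. MT1X differed by -1.22 on the log2 scale (interval -1.63 to -0.82), MT1F by -0.96 (interval -1.23 to -0.68) and MT2A by -0.60 (interval -0.66 to -0.55). MT1E differed by -0.06, and its interval of -0.17 to 0.04 included 0. None of the 3 members that reached the expression threshold passed, while 24.1% of all genes did in either direction. The median over the 4 genes was -0.78, against 0.35 over all expressed genes, and the summed FPKM differed by -0.50.

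**Figure D3:**
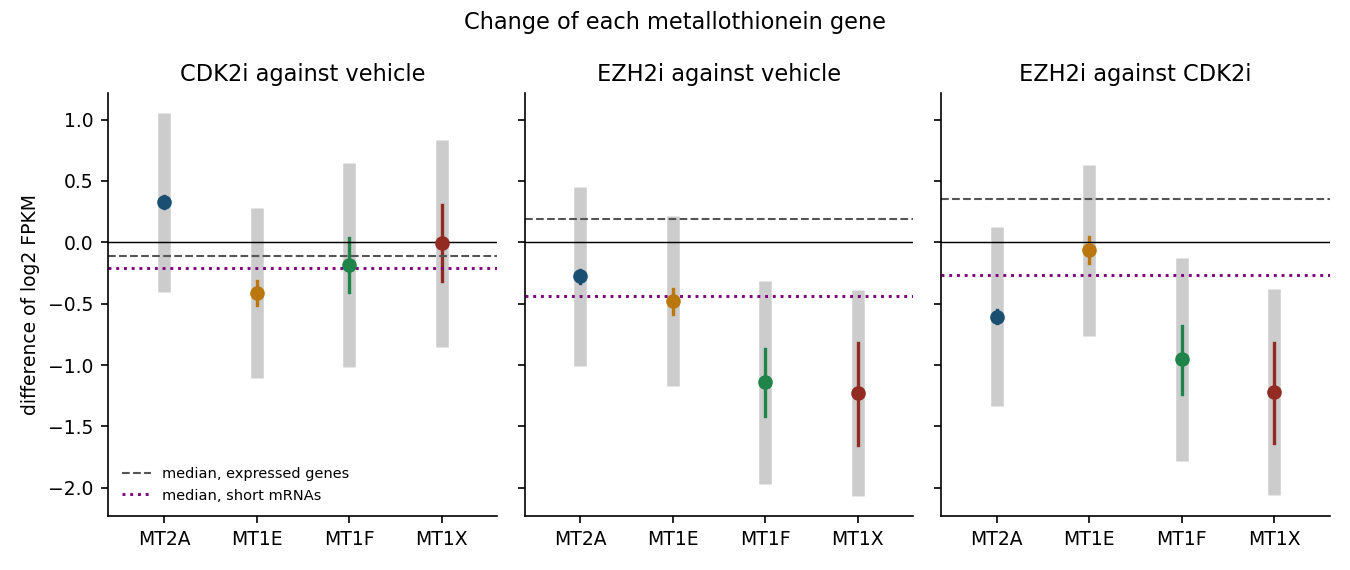
Difference of log2 FPKM for MT2A, MT1E, MT1F and MT1X between the tumors named above each panel, with coloured bars for the 95% counting interval. Grey bars give plus and minus 1 SD of the EZH2i minus CDK2i difference over the 200 genes nearest in mean level. Dashed lines give the median of all expressed genes and dotted lines that of other genes with a short mRNA, cytosolic ribosomal protein genes left out. In the EZH2i against vehicle panel, MT1F (-1.14) and MT1X (-1.23) lie below both lines and their grey bars do not reach 0.

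The gap between single genes of like level gives a scale for these differences, since no replicate does. The SD of the EZH2i minus CDK2i difference over the 200 genes nearest in mean level was 0.69 for MT1E, 0.73 for MT2A, 0.83 for MT1F and 0.84 for MT1X. In the direct comparison of EZH2i with CDK2i, from which the SD was taken, MT1F and MT1X exceeded it as deposited. There MT1F fell just short with the trend removed (-0.826 against an SD of 0.828). It also fell short with equal sums without ribosomal protein and mitochondrially encoded genes (-0.77). MT1F and MT1X exceeded the SD in the EZH2i tumor against vehicle as well, although MT1F did not with the trend removed (-0.71). No member exceeded it in the CDK2i tumor against vehicle. This SD is taken between genes and says nothing of the spread between tumors.

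Metallothionein mRNAs are short, and short mRNAs other than those of cytosolic ribosomal proteins differed between these tumors. Cytosolic ribosomal protein genes were left out of this set. Among 348 other expressed genes with an mRNA of 350 to 750 nt, the median log2 difference was -0.44 in the EZH2i tumor against vehicle, and 257 of them (73.9%) were lower. In the CDK2i tumor against vehicle, their median was -0.21 and 224 (64.4%) were lower. The differences of MT1E and MT2A in the EZH2i tumor (-0.48 and -0.28) were thus near the median of this set of short mRNAs, and those of MT1F and MT1X were below it.

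After a smooth trend on GC content and mRNA length was removed, MT1F differed by -0.71 and MT1X by -0.94 between the EZH2i and vehicle tumors, and neither reached a 2-fold change. In that comparison MT1E was at -0.13, and MT2A turned to 0.25. In the CDK2i tumor, the trend-removed values were 0.60 for MT2A, -0.13 for MT1E, 0.11 for MT1F and 0.30 for MT1X. The direction of MT2A in the EZH2i tumor and those of MT1F and MT1X in the CDK2i tumor thus depended on this step. Among the other scalings, centring moved the median of all expressed genes by 0.18 on the log2 scale in CDK2i against vehicle and by -0.25 in EZH2i against vehicle. Equal summed FPKM moved it by 0.15 and 0.24, and by -0.14 and 0.04 when ribosomal protein and mitochondrially encoded genes were left out of the sums. Set against the deposited median of expressed genes, MT1F was at -1.33, MT1X at -1.42, MT1E at -0.67 and MT2A at -0.47 in the EZH2i tumor. In the CDK2i tumor, MT2A was at 0.44 and MT1E at -0.30 on that footing. What part of each difference belongs to library composition was not tested.

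**Figure D4:**
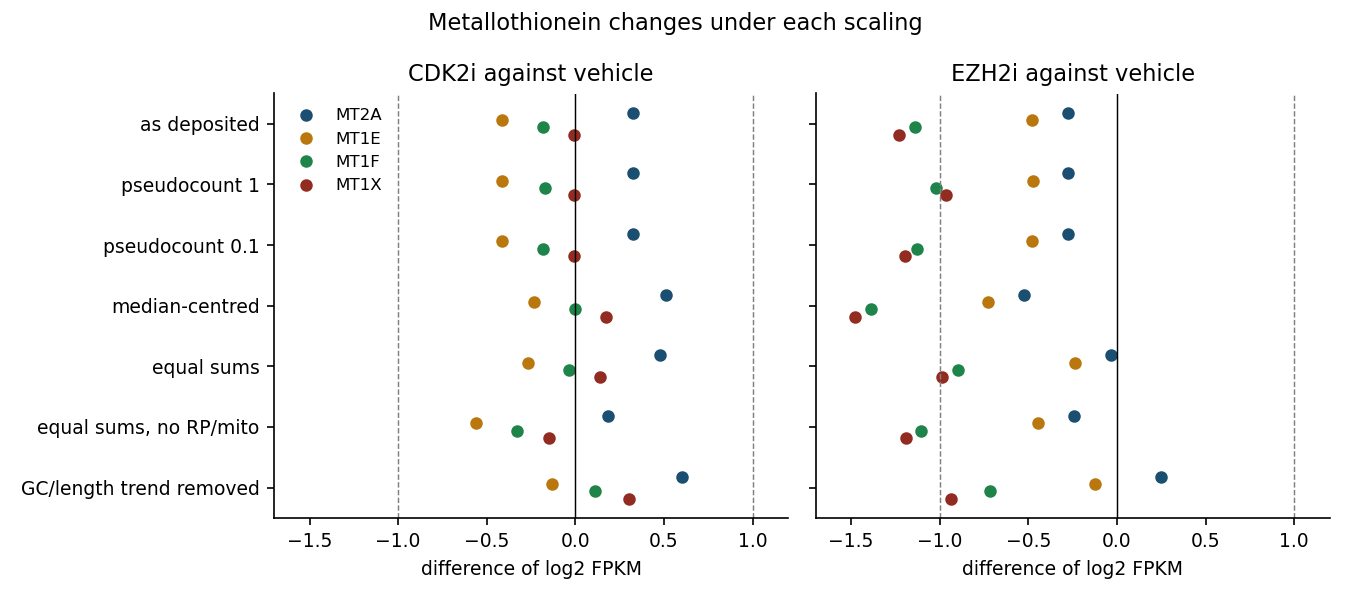
Difference of log2 FPKM (horizontal axis) for MT2A, MT1E, MT1F and MT1X under the deposited scaling and 6 alternatives (vertical axis), for CDK2i against vehicle (left) and EZH2i against vehicle (right), with dashed lines at a 2-fold change. In the EZH2i panel MT1F and MT1X stay left of 0 throughout (-1.14 and -1.23 as deposited, -0.71 and -0.94 with the trend removed), while MT2A moves from -0.28 to 0.25.

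In bulk tumor RNA, fewer cells of a type and less RNA per cell cannot be told apart. The 8 carcinoma markers listed (the basal-like markers KRT5, KRT14, KRT17, KRT6B, EGFR and CDH3 and the general epithelial genes EPCAM and CDH1, which luminal tumors express strongly) were all above log2 FPKM 3 in every tumor. Their summed level was 5912 FPKM under vehicle, 14096 under CDK2i and 5747 under EZH2i. Of the 8, KRT5, KRT14, KRT17 and KRT6B passed as higher in the CDK2i tumor against vehicle, where 3.27% of all genes did. EGFR passed as higher in the EZH2i tumor against vehicle, where 8.93% of all genes did. Host cells are of mouse, and markers of stroma were read against the human genome. The 4 macrophage markers with values of 8 listed summed to 0.151 to 0.347 FPKM over the tumors, with CD163 at zero in the vehicle and EZH2i tumors and CD68 and AIF1 at zero in both treated tumors. The 6 endothelial markers with values of 8 listed summed to 0.791 to 0.988 FPKM, with EMCN at zero in each tumor, and the 8 fibroblast markers to 25.0 FPKM under vehicle, 39.2 under CDK2i and 31.1 under EZH2i. Of 2 fibroblast markers reaching the threshold in CDK2i against vehicle, LUM passed as higher, against 3.27% of all genes. LUM reached the threshold only through the CDK2i tumor, so its rise helped to form that denominator. The part of these differences, and of mouse reads, in the metallothionein values was not tested.

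Other metallothionein genes were near zero. MT3 had 1 fragment in the CDK2i tumor and none in the others, and MT4 had none in any tumor. MT1L, a pseudogene within the cluster, had 11 fragments under vehicle, 2 under CDK2i and 1 under EZH2i, counted at the length of 411 nt at which its values are whole, which is not its annotated length of 186 nt. Its log2 difference was -2.65 (interval -5.86 to -0.45) with CDK2i and -3.52 (interval -8.95 to -0.74) with EZH2i. MT1P1, a processed pseudogene on chromosome 9, had 8, 2 and 3 fragments, and both its intervals against vehicle included 0. MT1XP1, a processed pseudogene on chromosome 1, had 2, 4 and 1 fragments. None of these genes reached the expression threshold, and the values of the pseudogenes are uncertain because the handling of shared reads is not known.

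MTF1, the zinc-sensing activator of metallothionein promoters, had a log2 FPKM of 1.69 under vehicle, 0.10 under CDK2i and 2.40 under EZH2i. It was lowest in the tumor with the highest MT2A level, and it stayed below the expression threshold in all 3. NFE2L2, the oxidative stress factor, was at 4.21, 3.20 and 4.61 and passed as lower in the CDK2i tumor, as 1 of the 6 factors reaching the threshold there, against 8.07% of all genes called lower. With the trend removed its difference was -0.80, under a 2-fold change. No factor passed in the EZH2i tumor against vehicle. SP1, a general activator at GC-rich promoters, was at 3.09, 2.58 and 3.66. It passed as higher in the EZH2i tumor than in the CDK2i tumor, as did NFE2L2. They were 2 of the 7 factors reaching the threshold in that comparison, where 17.5% of all genes passed as higher. SP1 reached the threshold there only through the EZH2i tumor. The trend-removed values of SP1 and NFE2L2, 0.29 and 0.78, were under a 2-fold change.

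Zinc exporters of the SLC30 family move zinc out of the cytosol, and SLC30A1, the exporter of the plasma membrane, is itself an MTF1 target. SLC30A1 had a log2 FPKM of 2.15 under vehicle, 1.55 under CDK2i and 3.29 under EZH2i, and passed as higher in the EZH2i tumor by 1.14. As deposited, it differed in that tumor in the opposite direction to the 4 metallothionein genes. With a GC and length trend removed, MT2A was at 0.25 in that tumor, the same direction as SLC30A1. SLC30A7 passed there as well, by 1.21, so that 2 of the 4 exporters reaching the threshold were higher and 0 were lower, against 8.93% of all genes called higher. SLC30A1, SLC30A7 and SLC30A5 reached the threshold only through the EZH2i tumor, so the rise being counted helped to form that denominator of 4. With the GC and length trend removed, SLC30A1 was at 0.39 and SLC30A7 at 0.30, both under a 2-fold change. No exporter passed in the CDK2i tumor against vehicle, where 1 reached the threshold.

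Zinc importers of the SLC39 family bring zinc into the cytosol. Of 9 that reached the threshold in the EZH2i against vehicle comparison, 2 passed as higher, SLC39A10 by 1.45 and SLC39A14 by 1.42, and 0 as lower, against 8.93% of all genes called higher. Both SLC39A10 and SLC39A14 reached the threshold only through the EZH2i tumor. Their trend-removed values were 0.66 and 0.95, both under a 2-fold change. Of 11 in the CDK2i comparison, 1 passed as higher, against 3.27% of all genes. This was SLC39A2, at a log2 FPKM of 2.43 under vehicle, 3.44 under CDK2i and 1.08 under EZH2i, which reached the threshold only through the CDK2i tumor.

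Genes of copper and iron handling, metals whose stress also reaches metallothioneins, gave 1 lower call of 8 in the EZH2i tumor against vehicle, where 4.42% of all genes were called lower, and 0 of 8 in the CDK2i tumor, where 11.3% were called in either direction. This was FTH1, the ferritin heavy chain that stores iron, at a log2 FPKM of 7.49 under vehicle, 7.74 under CDK2i and 6.34 under EZH2i. Its EZH2i difference was -1.15 as deposited and -1.05 with the trend removed. Of the listed glucocorticoid-induced genes, 3 of 5 passed as higher in the CDK2i tumor, namely DUSP1 by 4.42, SGK1 by 1.88 and PER1 by 1.02, genes that other stimuli are also known to induce. Over all genes, 3.27% passed as higher in that comparison. PER1 reached the threshold only through the CDK2i tumor. In the EZH2i tumor 1 of 4 passed as higher, against 8.93% of all genes, namely ERRFI1 by 1.17, which fell under a 2-fold change with the trend removed (0.70).

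Neighbours of the cluster are given for comparison. Of those within 500 kb that reached the expression threshold, NUP93, at 45.9 kb, differed from vehicle by -0.13 with CDK2i and 0.22 with EZH2i. HERPUD1 was at -1.20 and 0.45 and passed as lower in the CDK2i tumor, a call lost with the trend removed (-0.98). It reached the threshold in CDK2i against vehicle only through the vehicle tumor (log2 FPKM of 3.386, against 2.182 under CDK2i). In that comparison 8.07% of all genes that reached the threshold passed as lower. NUDT21, CPNE2 and FAM192A lay between -0.07 and 0.73 with CDK2i and between 0.12 and 0.92 with EZH2i. With the trend removed, NUP93 turned to -0.38 and FAM192A to -0.22 with EZH2i.

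The genes nearest to the family sum in their pair of log2 differences from vehicle, by Euclidean distance over 7569 genes, were DGCR2, ANAPC11, HRAS, LOXL2 and DUS1L. DGCR2 differed by 0.15 with CDK2i and -0.36 with EZH2i, against 0.15 and -0.35 for the summed metallothionein FPKM. The likeness rests on 3 libraries and on small differences.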

How the data were processed

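RNAseq was performed on 3 SUM-149 xenograft tumors, 1 library each for vehicle, CDK2i and EZH2i. The submitters' processing notes name CASAVA, STAR and hg19 (GRCh37), and the FPKM tool was not given in the sources used here. The authors deposited log2 FPKM for 29689 genes, and a value of -9 was taken as an FPKM of 0. The members and gene lists were chosen with earlier results of these data known.

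Symbols were matched to GENCODE 44 on GRCh37. Depth was worked out, at the length of the longest transcript of each gene, from low values being whole multiples of 1 fragment. At that depth, values were whole within 0.15% more often for the longest transcript (34.4% to 37.1% of low-valued genes for which this length and the exon union differ) than for the union of exons (0.987% to 1.34%). The comparison may favour the longest transcript, since the depth was fitted at its length. Counting intervals are 95% exact binomial intervals of the fragments of a tumor pair and cover counting error only. The depth and trend steps were tested on simulated data, with fragments simulated at the length of the longest transcript. Such a test cannot show whether the deposited FPKM used that length.

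A gene passed with a fold change above 2 and log2 FPKM above 3 in at least 1 tumor of the pair. The study's p value cutoff could not be applied. Trends were cubic polynomials in GC content and log mRNA length over 10098 expressed genes with annotation, cytosolic ribosomal protein genes left out. Annotation was found for 91.6% of expressed genes. With 1 library per treatment no test was run. All members are named, with listed zinc transporters, factors and list genes past the thresholds, MTF1, SLC30A1, cluster neighbours within 500 kb and the 5 genes of nearest pattern. One gene that this rule selects is not reported here. Alternatives were pseudocounts of 1 and 0.1 FPKM, 3 scalings, trend removal, fold thresholds of 1.5 and 3, expression minima of 1 and 5 or none, and, added after the data were seen, spliced mRNA length. Analyses used Python 3.11.15 with numpy 2.4.6, pandas 2.3.3, scipy 1.17.1 and matplotlib 3.10.9.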

Additional observations from a re-analysis of the deposited data

How the results depend on the processing

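No paired analysis was possible because each treatment had 1 library, and leaving out a library was not possible for the same reason. Pseudocounts of 1 and 0.1 FPKM changed neither a count of passing genes nor a median beyond the spread between genes. For EZH2i against vehicle, 1 gene passed as deposited (MT1F). The count was 0 with equal summed FPKM, with the GC and length trend removed, with a fold threshold of 3 and with a minimum log2 FPKM of 5. It was 2 (MT1F and MT1X) with a minimum of 1 and with the level per spliced mRNA length, and 4 (MT1F, MT1G, MT1H and MT1X) with no minimum, MT1G and MT1H having at most 1 fragment. For EZH2i against CDK2i the count rose from 0 to 1 (MT1X) with a minimum of 1 and per spliced length, to 2 (MT1F and MT2A) with a fold threshold of 1.5 and with centring on the median expressed gene, and to 2 (MT1M and MT1X) with no minimum. For CDK2i against vehicle it rose from 0 to 3 with no minimum, all 3 being genes with at most 1 fragment (MT1G, MT1H and MT1M). Shares over all genes were worked out at the main thresholds only. The median of the 4 genes in CDK2i against vehicle changed sign to 0.21 with the trend removed, to 0.09 with centring and to 0.05 with equal sums. In EZH2i against vehicle it was -1.06 with centring, -0.57 with equal sums and -0.42 with the trend removed. In EZH2i against CDK2i it was -1.21 with centring, -0.60 with equal sums without ribosomal protein and mitochondrially encoded genes, and -0.59 with the trend removed. The log2 difference of the summed FPKM in CDK2i against vehicle was 0.33 with centring, 0.30 with equal sums, 0.0026 with equal sums without those genes and 0.42 with the trend removed. In EZH2i against vehicle it was -0.60 with centring and -0.11 with equal sums, and it reversed to 0.13 with the trend removed, as MT2A did to 0.25. In EZH2i against CDK2i it was -0.93, -0.41, -0.32 and -0.29 under the same settings in the order given for CDK2i against vehicle. The cause of these shifts was not tested.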
